A study of Mus musculus with 18 samples.

Results

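The results concern 273 small insertions and deletions (indels) that were each called in exactly 1 mouse leukemia and carried no database mark. They were taken from a deposited table of 2653 somatic variant calls. An indel was kept when its row was not marked as known in the table's database column, when its site (chromosome, position, reference and alternative allele) was listed in 1 leukemia, and when either allele was longer than 1 base. Calls in Nsd1 were left out by the same rule, which removed 15 further indels. The table held 379 indel calls in all, and 1057 single-base calls met the same conditions and served for comparison.

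The samples were whole-exome libraries of genomic DNA from 17 leukemias, each from a separate mouse of the C57Bl6-NIH background carrying both the NP23 and the NHD13 transgene, which express fusions of NUP98 with PHF23 and with HOXD13. The labels call every leukemia thymic acute myeloid leukemia and take 11 from thymus and 6 from bone marrow. Tail DNA of 1 wild-type C57Bl6-NIH mouse was the normal for every call, so it was not matched to the mouse that gave the leukemia. The labels give no age, and both transgenes are known from descriptions of these mouse lines to be driven by Vav1 regulatory sequence, which the labels do not state. Mouse numbers fell into a series ending in NN (9 leukemias, 5 from thymus) and a series without that ending, called plain here (8 leukemias, 6 from thymus). Cell types could not be checked against marker genes, since DNA calls carry no expression level.

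An indel whose length is not a multiple of 3 shifts the reading frame of a coding exon and usually brings a premature stop codon, whereas a multiple of 3 adds or removes whole amino acids. In myeloid leukemia, frameshift indels are best known as inactivating changes in regulators such as TET2 and as the change of the NPM1 protein's end. Indels are also harder to call than single-base changes, because aligners place the same change differently and copies of a short repeat slip during amplification.

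The sequences of 5 coding indels with high read support are given to show what was gained or lost. All are written 5′ to 3′ on the plus strand of mm10, with the reference base before the change in lower case and the inserted or deleted bases in capitals.
Nck2 insertion, M59, after chr1:43554531: cAATGAGCGGGGCGTCGAGGG
Cbl deletion, M61, chr9:44164238-44164267: cAGTATAATTCATATTGTTCCTTTGGTGAA
Insc deletion, M31, chr7:114804535-114804548: aGGGAATCTGTTCG
Lrba deletion, M22, chr3:86776167-86776175: cACCGTGGA
Kiss1 insertion, M31, after chr1:133327321: aGTGGCACCTTTG

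A further set shows insertions called after the same base in 2 leukemias, which counted as private because their lengths differed. Here capitals mark the inserted bases that both leukemias shared, and lower case after them marks bases inserted in 1 leukemia only.
Mroh2a, M23, after chr1:88255196: gGAAGGTATa
Mroh2a, M24, after chr1:88255196: gGAAGGTAT
Gfra2, M18, after chr14:70895970: cACTGCCGAAg
Gfra2, M22, after chr14:70895970: cACTGCCGAA
Eml3, M18, after chr19:8936743: gTAAGAATGTTC
Eml3, M22, after chr19:8936743: gTAAGAATGTTCc
Clpp, M21, after chr17:56992948: cTGTCCAA
Clpp, M22, after chr17:56992948: cTGTCCAAca

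The last set shows pairs of insertions called 1 or 2 bases apart in the same leukemia, again with the inserted bases in capitals.
Tet3, M18, after chr6:83370654: gGA
Tet3, M18, after chr6:83370655: tGAGTTTG
Hspb6, M22, after chr7:30554591: aGGAG
Hspb6, M22, after chr7:30554593: cAGGCG
Rtel1, M24, after chr2:181351603: gC
Rtel1, M24, after chr2:181351605: tGTCTCTTATACACATCTGAC

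Insertions made up most of the indels. There were 220 insertions (80.6%, 95% Clopper-Pearson interval 75.4% to 85.1%) and 53 deletions. Intervals throughout cover counting error only. Those over calls treat the calls as independent, although calls of a leukemia share its library and some form pairs. They do not measure the spread between leukemias. Those over reads treat the reads as independent, although several reads can be PCR copies of the same molecule. The indels lay in 16 of the 17 leukemias, and M55 had 0.

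Their number differed widely between leukemias. Among the plain thymus leukemias M18 had 65 indels, M22 had 63, M19 had 46, M31 had 39, M21 had 11 and M20 had 3. The plain bone marrow leukemias M24 and M23 had 17 and 9. In the NN series M59 had 5, M53 and M61 had 3 each, M54, M56, M57 and M60 had 2 each, and M58 had 1. M18, M19 and M22 together held 174 of the 273 indels, and only M20 of the plain leukemias fell inside the NN range.

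The design contrasts the tissue from which a leukemia was taken. Leukemias from thymus had 21.5 ± 26.2 indels (SD, n = 11), against 6 ± 6.13 (SD, n = 6) for those from bone marrow. This difference was smaller than the spread within the thymus group. It did not pass the exact two-sided permutation test (p = 0.209, Benjamini-Hochberg adjusted p = 0.487 over 7 planned tests). The medians were 3 and 3.5. Within the plain series the difference was 24.8 (6 against 2 leukemias, exact permutation p = 0.357, where the smallest possible p was 0.0357). Within the NN series it was -0.5 (5 against 4, exact permutation p = 0.675). The difference between these 2 values, 25.3, did not pass the exact permutation test within series (p = 0.327). Without M18, M19, M22 and M31 the difference was -2.57.

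The plain leukemias had more indels than the NN leukemias, with 31.6 ± 24.9 indels (SD, n = 8) against 2.22 ± 1.39 (SD, n = 9). The difference of 29.4 passed the test (exact permutation p = 0.000165, adjusted p = 0.000494 over 3 tests added after the values were seen). Without M18, M19, M22 and M31 the difference was 7.78 (exact permutation p = 0.00559, 4 against 9 leukemias). At an allele fraction of 0.10 or higher it was 5.4 (exact permutation p = 0.00617), with 53 plain indels, 29 of them in M31, against 11 NN indels. Among indels with 5 or more alternative reads and 20 or more reads of depth it was 9.07 (exact permutation p = 0.025). The excess was not particular to indels. Single-base calls that met the same conditions ran from 38 to 206 per plain leukemia and from 10 to 47 per NN leukemia. The labels do not say what the ending stands for, and series, sequencing run and mouse cohort cannot be told apart.

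**Figure D1:**
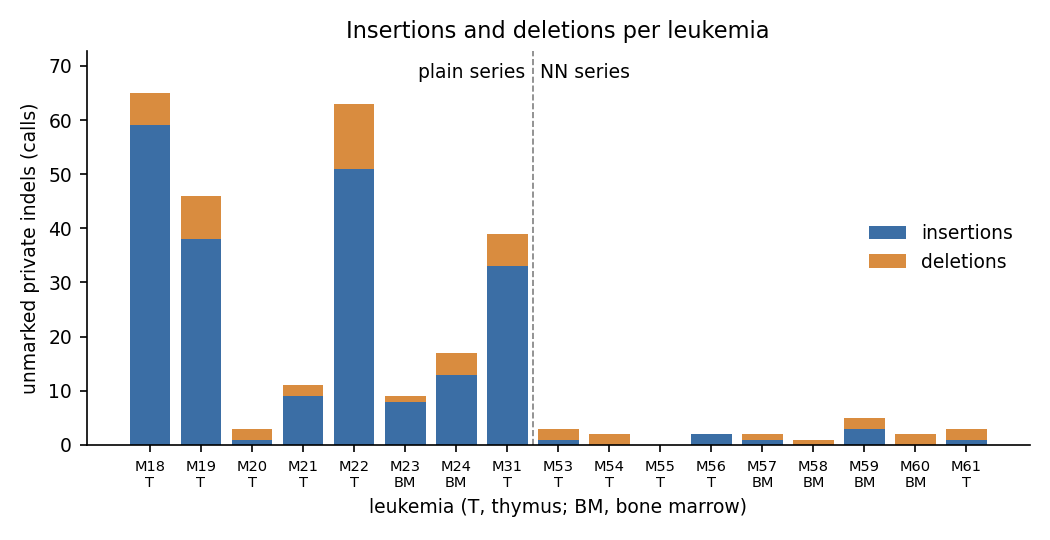
Number of unmarked private indels (y axis, calls) in each of 17 leukemias (x axis, with the tissue), split into insertions and deletions, with the plain series left of the dashed line and the NN series right of it. Plain leukemias ranged from 3 to 65 indels and NN leukemias from 0 to 5.

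The balance of insertions and deletions also differed between the series. Plain leukemias held 212 insertions among 253 indels (83.8%, interval 78.7% to 88.1%), and NN leukemias 8 among 20 (40%, interval 19.1% to 63.9%). Over leukemias with at least 3 indels the mean share of insertions was 77.4% ± 18.4 (SD, n = 8) in the plain series and 42.2% ± 15.4 (SD, n = 3) in the NN series. The difference of 35.2 percentage points had an exact permutation p of 0.0242 (adjusted p = 0.0364 over the 3 added tests). It missed 0.05 whenever M53, M59 or M61 was left out and when calls within 10 bases counted as 1 (29.8 points, exact permutation p = 0.0667), where 2 NN leukemias were left. It also missed 0.05 with 5 or more alternative reads and 20 or more reads of depth (22.1 points, exact permutation p = 0.667), without calls within 1 Mb of a database-marked call (29.1 points, p = 0.0667 by exact permutation), without M18, M19 and M22 (30.8 points, p = 0.143 by exact permutation) and without these and M31 (27.9 points, p = 0.2 by exact permutation). Of 6 alternatives other than leaving out each leukemia in turn, 1 kept the call. Between tissues the share of insertions was 65.1% ± 26.5 (SD, n = 8) in thymus and 75.1% ± 14.5 (SD, n = 3) in bone marrow (exact permutation p = 0.539, adjusted p = 0.67). That difference was -7 points within the plain series (exact permutation p = 0.75) and -26.7 points in the NN series, with 2 against 1 leukemia.

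Indels were also a larger share of the unmarked private calls in the plain series, 19.6% ± 8.14 (SD, n = 8), than in the NN series, 11.8% ± 6.64 (SD, n = 9). The difference of 7.83 points had an exact permutation p of 0.046, which did not change with adjustment over the 3 added tests. Leaving out any of M18, M19, M21, M22, M24 or M54 to M59 gave 6.11 to 8.1 points with an exact permutation p above 0.05. The difference was -2.1 points when a call needed 5 or more alternative reads and 20 or more reads of depth.

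Most indels were short. Their length ran from 1 to 84 bases with a median of 5. The insertions had a median of 6 bases and a range of 1 to 68, and the deletions a median of 3 and a range of 1 to 84. Changes of 1 base made up 38 insertions and 19 deletions, and 3 bases was the next most frequent length with 30 insertions and 8 deletions. Another 64 indels were longer than 10 bases and 18 longer than 20. A further broad group of insertions had 7 to 11 bases, with 17, 13, 13, 9 and 13 calls at those lengths.

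Tandem repeats took in a minority of the indels. The caller marked 53 (19.4%, interval 14.9% to 24.6%) as changes in the copy number of a tandem repeat, and in 36 the repeated unit was a single base. Some of those went from 1 to 2 copies, as in Tnnt2 of M31, so the reference held no run there. Of these 36, 33 were 1 base long and 27 lay outside coding sequence. Repeats took in 33 of the 64 indels at an allele fraction of 0.10 or higher and 20 of 209 below it, and M31 held 23 of the 53. The inserted bases outside and inside repeats came to 1770 in total, of which 48.2% were G or C. No stretch of 10 bases was inserted in more than 1 gene, among 477 such stretches, a search added after the values were seen.

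Coding sequence held 168 of the 273 indels (61.5%, interval 55.5% to 67.3%), against 706 of the 1057 single-base calls (66.8%, interval 63.9% to 69.6%). Of the coding indels 110 shifted the reading frame (65.5%, interval 57.8% to 72.6%) and 58 were in-frame. Insertions gave 91 frameshifts and 50 in-frame changes, and deletions 19 and 8. The frameshifts fell along the whole protein, from 1.68% to 98.6% of its length with a median of 58.4%. A stop codon was part of the annotated change in 13 indels, all of them insertions. The annotation marked 107 indels as likely loss of function.

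Outside coding sequence, 50 indels were in introns, 13 in splice regions, 10 in 5′ UTRs, 9 downstream of a gene, 9 between genes, 4 upstream, 3 in 3′ UTRs and 3 on the mitochondrial chromosome. Essential splice sites held 4, all insertions. They lay in Ddx5, an RNA helicase (M19, 4 of 118 reads), Gcn1l1, an activator of the amino acid starvation response (M19, 3 of 209), Lrguk (M18, 3 of 248) and Cacna1b, a neuronal calcium channel subunit (M31, 4 of 66).

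Lengths divisible by 3 made up 58 of 168 coding indels (34.5%, interval 27.4% to 42.2%) and 22 of 105 others (21%, interval 13.6% to 30%). Over the 7 leukemias with at least 3 of each, the coding share averaged 38.6% ± 24.9 (SD) and the noncoding share 24.3% ± 18.9 (SD). The coding share was higher in 5 of the 7, and the difference of 14.3 points did not pass the exact sign-flip permutation test (p = 0.422, adjusted p = 0.67). It was -0.641 points over the 3 leukemias left without M18, M19, M22 and M31.

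**Figure D2:**
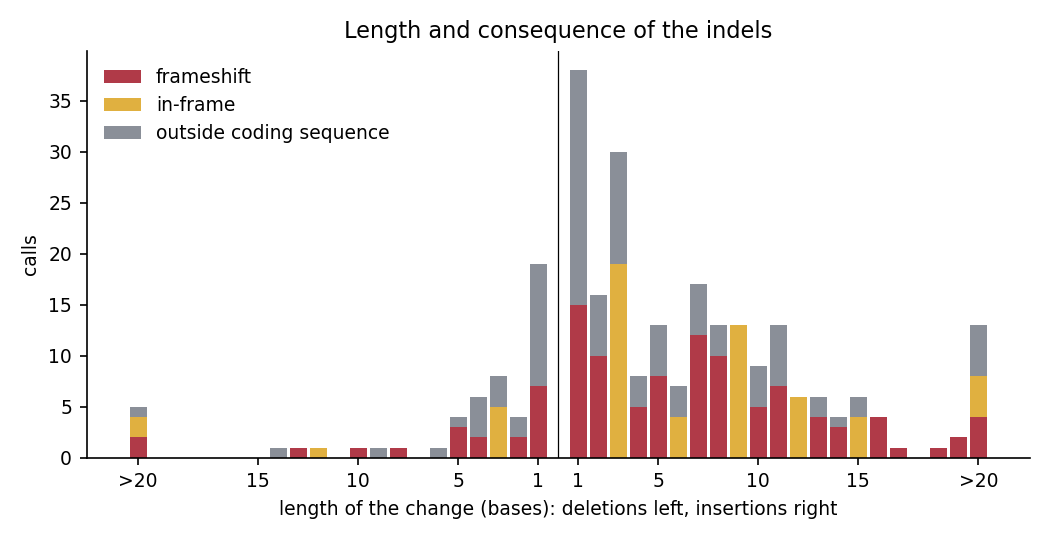
Number of indels (y axis, calls) by length in bases (x axis, deletions left and insertions right of the line), coloured by consequence. Changes of 1 base were the most frequent on both sides, and in-frame changes stood at multiples of 3.

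Most indels rested on few reads. The number of alternative reads had a median of 4 and ran from 0 to 135, and 204 indels (74.7%, interval 69.1% to 79.8%) had at most 5. The allele fraction, the caller's estimate of the share of reads with the change, had a median of 0.042 and ran from 0.001573 to 0.826. Depth had a median of 116 reads, with a range of 7 to 7533. The deepest sites were mitochondrial. Median depth per leukemia at the single-base calls ran from 61 to 148 reads.

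The indels below a fraction of 0.10 numbered 209, and 188 of them had at most 5 alternative reads. They lay along a band in which a higher depth went with a lower fraction. Because most of them had a similar, small number of alternative reads, this relation was largely set by the read counts. The indels at 0.10 or above numbered 64, of which 29 were in M31, 24 in the other plain leukemias and 11 in the NN series. As a share these were 11.2% of the plain indels outside M31 (interval 7.32% to 16.2%), 74.4% in M31 (interval 57.9% to 87%) and 55% in the NN series (interval 31.5% to 76.9%). The wild-type tail showed alternative reads at 9 of the 273 sites.

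**Figure D3:**
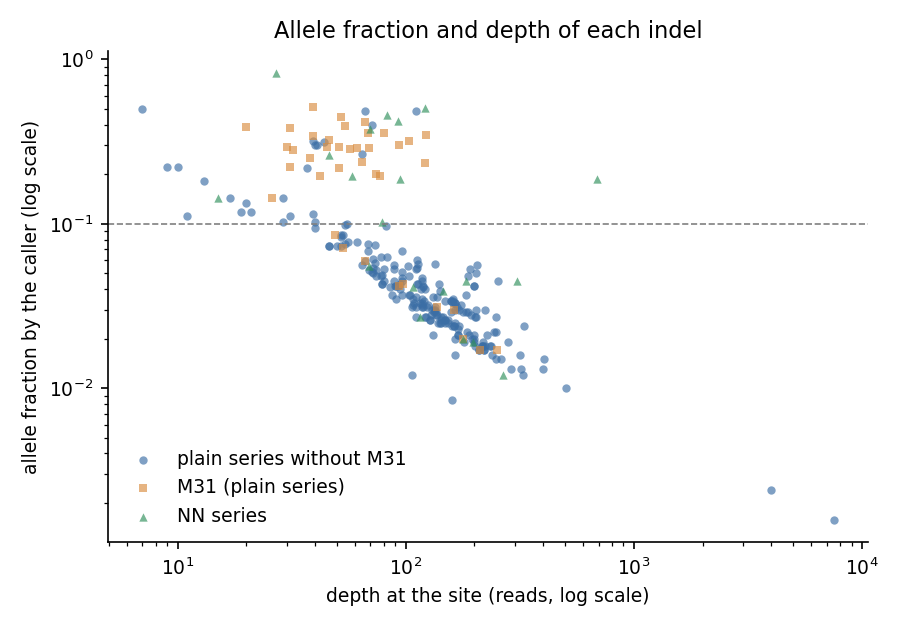
Allele fraction by the caller (y axis, log scale) against depth at the site in reads (x axis, log scale), 1 point per indel, for M31, the other plain leukemias and the NN series. Most plain indels outside M31 lie below the dashed line at 0.10, and most M31 points above it.

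No difference in allele fraction or depth between indels and single-base calls of the same leukemia passed its test after adjustment. Over the 11 leukemias with at least 3 of each, the median fraction averaged 0.077 ± 0.0761 (SD) for indels and 0.0725 ± 0.0722 (SD) for single-base calls. The difference, 0.00441 ± 0.0288 (SD, n = 11), was higher in 6, lower in 4 and equal in 1 (exact sign-flip permutation p = 0.574, adjusted p = 0.67), and it was -0.00235 without M21. Depth averaged 96.3 ± 39 reads (SD) at indels and 107 ± 33 at single-base calls. The indels were shallower by 10.7 reads, in 9 of the 11 leukemias, which did not pass (exact sign-flip permutation p = 0.0674, adjusted p = 0.236). Leaving out M53, with 3 indels, gave -13.6 reads with an unadjusted exact permutation p of 0.0137. Insertions and deletions could be compared in 5 leukemias, whose medians averaged 0.0852 ± 0.112 and 0.0602 ± 0.0485 (SD). That difference of 0.025 was positive in 2 of the 5 and rested on M31 (-0.00388 without it), and 5 leukemias cannot give an exact permutation p below 0.0625 (observed p = 0.812).

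Coding or essential splice indels at a fraction of 0.10 or higher, covered by 20 reads or more, numbered 15, in 8 leukemias, with 11 frameshifts and 4 in-frame changes. There were 8 insertions among them, and 0 had another unmarked private call within 10 bases. M31 held 4 of them, of which 2 lay near database-marked calls as described further on.

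Frameshifts had high read shares in genes of vesicle trafficking, salt transport and an immunoglobulin-like family. Lrba, a protein of vesicle trafficking that protects CTLA4 from degradation, lost the 8 bases shown above in M22 (Thr2766fs, exon 55 of 57) in 29 of 71 reads (40.8%, interval 29.3% to 53.2%). That change lay near the end of the protein of 2854 residues. Wnk4, a kinase that controls renal salt transport, lost 1 base in M61 (Leu803fs) in 26 of 70 reads (37.1%, interval 25.9% to 49.5%). Skint5, of an immunoglobulin-like family expressed in thymus and skin, gained 1 base in a run of 7 in M21 (Leu1257fs) in 13 of 39 reads (33.3%, interval 19.1% to 50.2%). The intervals of these read shares overlapped, so their order was not resolved.

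The genes of the leukemia lists among the well supported indels were Nck2 and Cbl. Nck2, an adaptor that links phosphorylated receptors to the actin cytoskeleton, carried the 20-base insertion in M59 (Asp307fs, exon 4 of 5) in 9 of 46 reads (19.6%, interval 9.36% to 33.9%). The caller listed it as going from 1 to 2 copies of the inserted unit. Cbl, a ubiquitin ligase that turns off receptor tyrosine kinases, lost 29 bases in M61 (Glu364fs, exon 8 of 16) in 9 of 79 reads (11.4%, interval 5.34% to 20.5%). The wild-type tail had 0 of 24 and 0 of 28 reads with these changes. Both leukemias were of the NN series. The Cbl deletion lay within 1 Mb of a database-marked call of M61.

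Other frameshifts of this set rested on fewer reads or a lower share. Insc, an adaptor of spindle orientation, lost 13 bases in M31 (Gly213fs) in 19 of 69 reads (27.5%, interval 17.5% to 39.6%). Gja10, a gap junction protein, was changed in M21 by 1 base in 4 of 31 reads. Tom1l1, an endosomal adaptor, was changed in M20 by 10 bases in 3 of 21 reads, Caskin2, a scaffold protein, in M21 by 1 base in 3 of 29, and 4931440F15Rik in M19 by 5 bases in 2 of 20. With 2 to 4 reads, the intervals of these last 4 began at 1.23% to 3.63% and ended at 27.4% to 36.3%.

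The in-frame changes of the set added or removed 1 to 4 residues. Akap13, which anchors protein kinase A, lost Thr2114 in M58 in 18 of 94 reads (19.1%, interval 11.8% to 28.6%). In M31, Kiss1, the precursor of kisspeptin, gained the 12 bases shown above after Val25 in 17 of 46 reads (37%, interval 23.2% to 52.5%). Ipo9, a nuclear import receptor, had Glu961 duplicated in 27 of 93 reads (29%, interval 20.1% to 39.4%). Tbc1d25, a Rab-GTPase activating protein of autophagy, had Asp569 duplicated in 16 of 57 reads (28.1%, interval 17% to 41.5%).

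Several noncoding indels with high read shares were changes of 1 base in runs of the same base. Others were longer, such as an insertion of 15 bases in an intron of Tnni1 in M31 (23 of 122 reads). The examples given here were chosen after their values were seen. The highest fraction of all members, 0.826, belonged to an insertion of 1 base in the 3′ UTR of Lpar4, a receptor for lysophosphatidic acid, in M59 (chrX:106931618, 22 of 27 reads, 81.5%, interval 61.9% to 93.7%). It extended a run of 9 bases to 10. In M54 a base was lost from a run of 6 inside the immunoglobulin kappa locus (chr6:68425655) in 60 of 121 reads, and from a run of 7 in an intron of the collagen gene Col22a1 in 35 of 92. In M53 a base was lost from a run of 7 between Mmp16 and Cngb3 in 39 of 83 reads. Gm5114 in M18 gained a base in a run of 8 in its 5′ UTR in 32 of 66 reads. M56 had 27 bases inserted in the immunoglobulin heavy chain locus (chr12:113429128) in 11 of 58 reads. Immunoglobulin loci are cut and rejoined in developing lymphocytes, and they were looked up after these calls were seen. M56 also carried a mitochondrial insertion of 1 base at position 12635 in 135 of 687 reads (19.7%, interval 16.7% to 22.8%), where the tail had 1 of 2329.

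M31 stood apart from the other plain leukemias. Its 39 indels had a median fraction of 0.28, against 0.031 to 0.143 in the other plain leukemias, and 31 of them were noncoding. In the NN series medians ran from 0.027 to 0.465, and M54, with 2 indels, had the highest. The 206 single-base calls of M31 also had a high median fraction, 0.2605, against 0.027 to 0.071 in the other plain leukemias. Of the 39 indels, 25 lay within 1 Mb of a database-marked call of M31, all on chromosomes 1 and 19, while 2 indels did so in all the other leukemias. That distance was chosen after the values were seen. The counts of 25 and 2 were not set against the number of database-marked calls in each leukemia. The 25 had a median fraction of 0.294 (0.194 to 0.514), 23 were insertions and 2 were coding, in Kiss1 and Ipo9. Examples among them were an intronic deletion in Ptprc, which encodes CD45 (29 of 80 reads), and a splice region insertion of 4 bases in Smarca2, a chromatin remodelling ATPase (36 of 123 reads). Of the other 14 indels of M31, 10 had fractions below 0.10, and 6 were coding. Whether the M31 calls near database-marked variants were inherited or acquired was not tested.

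Neighbouring calls were counted within 10 bases in the same leukemia, among unmarked private calls of any kind. A neighbour was found for 74 of 273 indels (27.1%, interval 21.9% to 32.8%) and 66 of 1057 single-base calls (6.24%, interval 4.86% to 7.88%). Among insertions 67 of 220 had such a neighbour, and among deletions 7 of 53. The share was 45.7% in M19, 33.3% in M23 and in M53, 32.3% in M18, 31.7% in M22, 29.4% in M24, 20% in M59 and 18.2% in M21. M20, M31 and M61 had 0.

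Over these 11 leukemias the share averaged 22.2% ± 15.9 (SD) for indels and 5.62% ± 4.28 (SD) for single-base calls. The difference of 16.6 points ± 14 (SD, n = 11) was higher in 8, lower in 2 and equal in 1. Its exact sign-flip permutation p was 0.00781, and the adjusted p over the 7 planned tests was 0.0547, so it missed 0.05 after adjustment. The single-base calls counted here include those that stood beside an indel. Each of the 30 pairs of an indel and a single-base call added a call to both counts. These counts were taken over 273 indels but 1057 single-base calls. Part of the difference was therefore set by the smaller number of indels, and the test does not separate that part. The difference was 12.7 points with M18, M19 and M22 left out (exact permutation p = 0.0625).

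**Figure D4:**
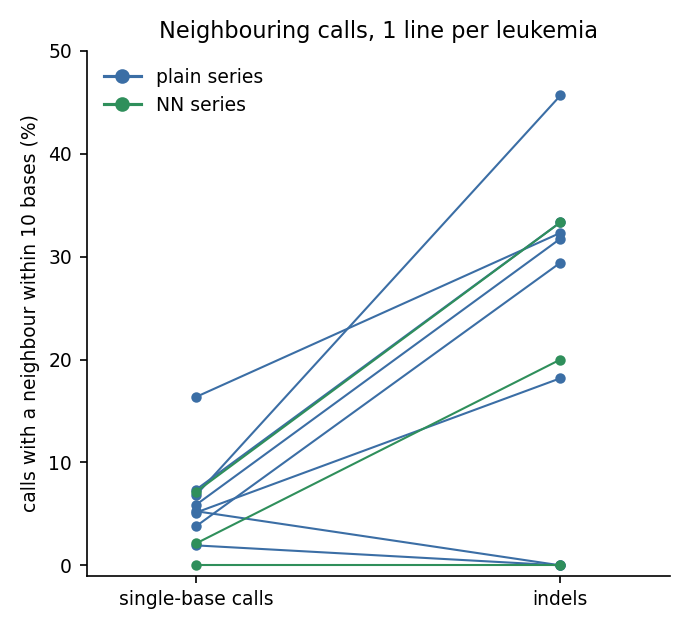
Share of calls with another unmarked private call within 10 bases (y axis, percent) for single-base calls and indels, 1 line for each of the 11 leukemias with at least 3 of both. The lines of M23 and M53 nearly coincide, the share was higher for indels in 8 leukemias, and it was 0 for the indels of M20, M31 and M61.

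The rows analysed here held calls for which the caller listed at most 2 events, at most 2 bases apart, so pairs further apart and clusters of more calls could not appear. All 52 neighbouring pairs with an indel were therefore 1 or 2 bases apart. They carried the same phase tag of the caller, which marks changes assigned to the same copy of the chromosome. Indels of the same leukemia formed 22 of these pairs, 20 of 2 insertions, 1 of 2 deletions and 1 of an insertion and a deletion. The other 30 joined an indel to a single-base call. In 14 of the 22 indel pairs both calls had equal numbers of alternative reads, and in 18 they differed by at most 1 read. The indel pairs occurred in 5 leukemias, none of the NN series, which held 20 of the 273 indels. Counted as locations, the 273 indels made 251, of which 22 held 2 indels.

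Such pairs bear on the annotated consequence, which the table gives call by call. In 14 indel pairs both calls were coding, and in 8 of them the summed length was a multiple of 3. Both calls were annotated as frameshifts in 6 of these 8. Those were Rasgef1c, a Ras exchange factor (M18, 2 and 13 bases), Tet3 (M18, 2 and 7), Ptgir, the prostacyclin receptor (M19, 1 and 8), Adamts14, a collagen-processing protease (M22, 1 and 8), Hspb6, a small heat shock protein (M22, 4 and 5), and Rtel1, a telomere helicase (M24, 1 and 20). In the other 2, Fam214a (M18, 3 and 9 bases) and Sptbn4 (M19, 3 and 3), both calls were in-frame. Pairs in Fat1, a cadherin of the tumor suppressor type (M22, 1 and 3 bases), and in the keratin gene Krt7 (M19, deletions of 1 and 3 bases) had a summed length change of 4 bases.

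The Rtel1 pair in M24 had a sequence of known identity. Most of the 20 inserted bases read as the end sequence that the transposase of the Nextera protocol, named in the labels, attaches to DNA fragments, an identity given from general knowledge and noticed after the values were seen. Each of its calls had 3 alternative reads, at depths of 118 and 120, and the tail had 0 of 125 and 0 of 127. Whether other insertions came from library preparation was not tested.

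Insertions of different leukemias also met at the same places. There were 18 pairs of insertions from different leukemias within 10 bases of each other, in 10 genes and with 26 insertions of 6 leukemias, 0 of them of the NN series. That series held 8 of the 220 insertions. In all, 30 of the 273 indels lay within 10 bases of any call of another leukemia, and all 30 were insertions. In 10 pairs the insertions followed the same base, and in each of these the shorter insertion was the start of the longer. Leaving out Vav1, this held for 7 of 7 pairs.

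The pairs shown above illustrate how alike these insertions were and how few reads carried them. In Mroh2a the insertions had 3 of 326 reads in M23 and 4 of 401 in M24, both from bone marrow. In Gfra2, a receptor of the neurturin growth factor, they had 5 of 106 reads in M18 and 5 of 112 in M22. In Eml3, a microtubule-binding protein, they had 6 of 161 in M18 and 5 of 158 in M22. In Clpp, the mitochondrial protease, they had 4 of 50 in M21 and 5 of 184 in M22. The tail had 0 alternative reads at each of these sites. Because the lengths differed by 1 or 2 bases, the annotation in each of the 4 genes was a frameshift in 1 leukemia and in-frame in the other: Ala81fs in M18 and an insertion after Ala80 in M22 for Gfra2, Arg498fs in M18 and an insertion after Gly497 in M22 for Eml3.

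The remaining genes of this kind were Pcnt, a centrosome scaffold (M19 and M24), Cpt1c, a carnitine palmitoyltransferase of neurons (M18 and M22), Fam214a (M18 and M19), Ggt1, a glutathione-cleaving enzyme (M18 and M19), and 5330417C22Rik (M18 and M21). In Pcnt, Cpt1c and Fam214a the same base was followed by inserted stretches whose shorter member matched the start of the longer, over 6, 2 and 3 bases. In Ggt1 the positions lay 1 base apart. The fractions were 0.027 to 0.075 in Pcnt, Cpt1c, Fam214a and Ggt1, and 0.219 to 0.222 in the 5′ UTR of 5330417C22Rik, where M18 had 7 of 37 reads and M21 had 2 of 10.

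Vav1, a guanine nucleotide exchange factor of blood cells, held 4 insertions in its 5′ UTR (exon 1 of 27) in M18, M21 and M22. At chr17:57279190 they were 64 bases long in M18 (14 of 44 reads), 23 in M21 (3 of 7) and 8 in M22 (11 of 41), and 2 bases further on M22 had an insertion of 68 bases (10 of 40). The 64-base and 68-base insertions were the longest insertions. The shorter insertions at the shared position were the start of the 64-base insertion. Fractions ran from 0.303 to 0.5, and the tail had 0 of 10 to 12 reads. Vav1 and 5330417C22Rik were the only genes with fractions of at least 0.10 in 2 or more leukemias. As background, regulatory sequence of Vav1 is part of the transgenes of these mouse lines. Whether the reads came from the endogenous gene or from a transgene was not tested.

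Beyond such genes, few genes were named in at least 2 leukemias. An indel listed with the same allele in at least 2 leukemias had been left out by rule, so recurrence of identical indels could not appear. The members named 232 genes or intervals between genes, of which 203 had 1 call, 29 had at least 2 and 11 had calls in at least 2 leukemias. The 10 genes with neighbouring insertions of different leukemias were among these 11.

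Genes of 8 lists of leukemia genes, 140 genes in all, held 6 of the 273 indels, in 5 genes and 3 lists, against 13 of the 1057 single-base calls. Beside Nck2 and Cbl they were Tet2 and Tet3, which oxidise 5-methylcytosine, and Kmt2c, a histone H3 lysine 4 methyltransferase. Tet2 carried an insertion of 1 base in M18 (Leu270fs) in 5 of 164 reads (3.05%, interval 0.997% to 6.97%) with a fraction of 0.016. The Tet3 pair of M18 had 5 of 158 reads for each call (3.16%, interval 1.04% to 7.23%). Kmt2c carried an in-frame insertion in M23 that introduced a stop codon (Lys4492delinsThrTer) in 3 of 111 reads (2.7%, interval 0.561% to 7.7%). The lists of JAK-STAT and cytokine receptors, hematopoietic transcription factors, splicing and cohesin, tumor suppressors and DNA repair, and fusion partners and HOX genes held 0 indels.

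Gene families known for frequent passenger or misplaced calls were no larger a share of the indels than of the single-base calls. Olfactory and vomeronasal receptors held 6 indels (2.2%) and 43 single-base calls (4.07%), zinc finger genes 1 (0.366%) and 20 (1.89%), and mucins and keratins 2, both in Krt7, and 12. The 6 receptor indels were in 6 genes and 5 leukemias, with fractions of at most 0.051.

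The longest deletions reached across whole coding stretches. D8Ertd82e lost 84 bases in frame in M24, removing Asp1085 to Leu1112, in 5 of 162 reads (3.09%, interval 1.01% to 7.06%). Cdh11, a cadherin of mesenchymal cells, lost 41 bases in M53 (Ile354fs) in 5 of 145 reads (3.45%, interval 1.13% to 7.86%). Exosc6, a subunit of the RNA exosome, lost 33 bases in frame in M60, removing Ala161 to Ala171, in 2 of 15 reads (13.3%, interval 1.66% to 40.5%). Apart from the Vav1 insertions, the longest had 36 bases and numbered 3, among them an in-frame insertion in Myh8, a fetal myosin heavy chain, in M19 (2 of 185 reads). These 4 coding changes rested on at most 5 alternative reads.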

How the data were processed

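The labels' protocols describe Nextera DNA libraries and exon capture with a SureSelectXT mouse kit. BWA 0.7.17, bcl2fastq 2.17.1.14, GATK and the builds GRCm38 and mm10 are listed in the submitters' processing notes. The version of GATK is not given in the sources used here. MuTect2 is named in the labels. The authors deposited, for each call, counts of reads with the alternative allele and of all reads, without scaling. Beside them the authors deposited the caller's own estimate of the allele fraction, from 0 to 1. It lay within the 95% interval of the read share for 53 of 54 named indels, the exception being Gfra2 in M18. Each of the 2653 rows was marked as passing and as inside a bait region. A further 27 columns of per-sample values were not used.

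Coordinates are mm10 as deposited. A call was noncoding when its annotation was neither frameshift nor in-frame. Of 261 indels with a transcript, 259 matched a gene in the GRCm38.p6 RefSeq table. The leukemia was the unit of every test. Two-group differences of means were tested by exact two-sided permutation, and within-leukemia differences by exact sign-flip permutation over leukemias with at least 3 calls of each kind, with Benjamini-Hochberg adjustment over 7 tests. The 3 comparisons of mouse number series were added after the values were seen and adjusted by themselves. The scripts (python 3.11.15, numpy 2.4.6, scipy 1.17.1, pandas 2.3.3, matplotlib 3.10.9) were tested on simulated data.

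Genes were named by rule: well supported coding or essential splice indels, genes hit in at least 2 leukemias, genes with at least 3 indels in 1 leukemia, leukemia list genes, and the 3 longest insertions and deletions. Some items that this rule takes are not reported here. Others were named after their values were seen, as were the printed sequences. Members, lists and rules were chosen with earlier results of these data known. Alternatives were 1 call per location, at least 5 alternative reads with a depth of at least 20, a fraction of at least 0.10, read share in place of fraction, and leaving out leukemias. The tail was the normal of every call and entered no test.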

Additional observations from a re-analysis of the deposited data

Results flagged for a closer look

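Of 10 group values examined for a leukemia far from the rest of its group by a gap test at the 95% level, 2 stood out. Chance alone sets a leukemia apart in about 1 in 20 such groups.

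The share of insertions was 33.3% in M20, while the nearest of the 8 plain leukemias had 76.5%. M20 had 3 indels, 1 of them an insertion, so the share moves widely with any call.

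The median allele fraction of the indels was 0.28 in M31, while the nearest of the 8 plain leukemias, M21, had 0.143. For single-base calls the median was 0.2605 in M31 and 0.071 in M21. Of the 39 indels of M31, 25 lay within 1 Mb of a database-marked call, with fractions of 0.194 or more. The part of those calls in the median was not tested.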

How the results depend on the processing

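Settings were judged by direction and by an unadjusted exact permutation p of 0.05. No paired analysis was possible because mouse numbers are not shared between tissues or between series. This concerns only those comparisons, since the others were made within each leukemia.

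The number of indels, thymus minus bone marrow, was -2.57 without M18, M19, M22 and M31 and -0.5 for medians, and ran from 11.2 to 17.7 when each leukemia was left out. With at least 5 alternative reads and a depth of at least 20, the share of insertions, thymus minus bone marrow, was 45.4 points, the fraction of insertions minus deletions -0.0125, the neighbour difference 14 points (exact permutation p = 0.125), the plain minus NN share of insertions 22.1 points and the plain minus NN share of indels -2.1 points. Without calls within 1 Mb of a database-marked call, the fraction differences were -0.0043 (insertions minus deletions) and -0.0013 (indels minus single-base calls), and the plain minus NN share of insertions was 29.1 points. With read share in place of fraction, indels minus single-base calls was -0.00838. With 1 call per location the depth difference was -14.8 reads (exact permutation p = 0.00195) and the plain minus NN share of insertions 29.8 points, and without calls near another leukemia's call the depth difference was -11.4 reads (p = 0.043 by exact permutation) and the plain minus NN share of indels 5.49 points. At a fraction of at least 0.10 the neighbour difference was 16.2 points and the plain minus NN share of indels 7.25 points. Without M18, M19 and M22 these were 12.7 and 3.16 points, and the plain minus NN share of insertions 30.8 points. Also without M31 they were 14.8, 2.92 and 27.9 points, and the share of lengths divisible by 3, coding minus noncoding, was -0.641 points. The plain minus NN share of insertions and share of indels lost their call at 0.05 under each of these settings named for them. The causes were not tested, and several of these settings left 5 to 8 leukemias.

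Leaving out each leukemia gave -17.6 to -3.14 points for the share of insertions between tissues, -0.00388 to 0.0351 for the fraction of insertions minus deletions, -0.00235 to 0.0101 for indels minus single-base calls, -13.6 to -7.25 reads for depth, 14.3 to 18.7 points for neighbours, 4.24 to 25.1 points for lengths divisible by 3, 24.6 to 33.5 for the number of indels between series, 30.8 to 44.1 points for insertions between series and 6.11 to 9.59 points for indels between series. The caller's fraction for Gfra2 in M18 was 0.012 against a read share of 0.0472. With most indels on at most 5 reads, fractions below 0.10 are imprecise.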
